A study of Mus musculus with 6 samples.

Results

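The genes described here are the transcription factors that carry the cellular response to low oxygen, the enzymes that sense oxygen for them, and a pair of their target genes. They were chosen by symbol: Hif1a, Epas1, Hif3a, Arnt, Vhl, Egln1, Egln2, Egln3, Bnip3 and Ndrg1. All 10 were present among the 17714 genes of the deposited table, and 9 passed the filter on low counts. The RNA came from wild-type mouse hearts, from what the labels call lymphatic endothelial cells, after myocardial infarction (MI, 3 libraries) or after a sham operation (3 libraries), both labelled day 3. Neither strain, age nor sex is given in the sources used here. The labels name neither a sorting step nor whether each library came from its own animal, so the p-values measure the spread between these libraries only.

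A hypoxia-inducible factor (HIF) is a pair of an alpha subunit (encoded by Hif1a, Epas1 or Hif3a) and the stable beta subunit encoded by Arnt. While oxygen is present, the prolyl hydroxylases encoded by Egln1, Egln2 and Egln3 hydroxylate the alpha subunit, the VHL protein recognises the hydroxylated form, and the subunit is degraded. When oxygen falls, the alpha subunit accumulates, pairs with ARNT and activates genes for glycolysis, vessel growth, mitochondrial turnover and the feedback hydroxylases themselves. This control acts mainly on the protein, which an RNA measurement does not read. Epas1 is known for its high expression in endothelial cells, and Hif1a for its role in the glycolytic metabolism of activated myeloid cells.

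The MI libraries held 21154200 to 21689212 estimated counts and the sham libraries 3206373 to 3591135, so depth followed the group, 6.29 times higher in MI. Markers of other cell types differed between the groups as well. The macrophage and monocyte list summed to 39586 to 41574 TPM (a level scaled by transcript length and library size) in MI and 8471 to 8901 TPM in sham, with 19 of 20 genes higher and 1 lower in MI. The neutrophil list summed to 1786 to 2183 TPM in MI and 96.3 to 125 TPM in sham, with 9 higher of the 11 genes tested out of 14 listed. The pan-endothelial list summed to 1561 to 1618 TPM in MI and 7963 to 8066 TPM in sham, with all 20 genes lower, and the cardiomyocyte list to 473 to 486 TPM in MI and 8112 to 8277 TPM in sham, with 13 of 14 lower. Ngp and Elane of the neutrophil list were at 0 in all sham libraries, and no gene of the macrophage, pan-endothelial or cardiomyocyte list was at 0 throughout a group. Prox1, the defining transcription factor of lymphatic endothelium, was at 0.283 ± 0.117 TPM in MI and 1.76 ± 0.127 TPM in sham (SD, n = 3 each). Of the 12 lymphatic markers listed, 10 were lower and 2 higher in MI, where Pdpn and Nrp2 were the higher ones, and their sum was 337 to 378 TPM in MI and 611 to 632 TPM in sham. The pan-leukocyte gene Ptprc was at 241 ± 54.4 TPM in MI and 41.3 ± 1.11 TPM in sham. In such mixed RNA, fewer cells of a type and less RNA per cell cannot be told apart.

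Of the 9 tested genes, 4 were higher in MI (Hif1a, Egln3, Ndrg1 and Egln2), 3 were lower (Egln1, Epas1 and Bnip3), and Arnt and Vhl did not pass an adjusted p of 0.05. Calls rest on the quasi-likelihood test of edgeR, with p-values adjusted by Benjamini-Hochberg over 13370 genes, of which 73.3% were called, 36.4% as higher and 36.9% as lower in MI. The groups did not overlap in scaled counts for 7 of the 9 genes, against 76.1% of all genes tested. Read against these shares, the number of called genes in this set is close to the background, and the description below rests on which genes moved, in which direction and by how much. Scaled to total counts instead, 3 of the 9 were higher and 4 lower, and of all genes 3549 were higher and 6628 lower. The median log2 fold change of the 9 genes was 0.14, against -0.01 for all genes tested.

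The order of the transcript levels differed between the groups. In MI, Ndrg1 was the highest at 285 ± 9.29 TPM, followed by Hif1a at 123 ± 38.9 and Epas1 at 105 ± 6.49 TPM, whose libraries overlapped (SD, n = 3 each). Egln2 at 53.7 ± 6.29 and Bnip3 at 48.8 ± 7.51 TPM came next and overlapped, then Egln1 at 29.9 ± 1.04 and Arnt at 28.0 ± 3.97 TPM, which also overlapped, then Vhl at 12.5 ± 1.56 and Egln3 at 9.32 ± 0.494 TPM. In sham, Epas1 was the highest at 333 ± 14.1 TPM, followed by Ndrg1 at 184 ± 9.55, Egln1 at 98.7 ± 1.93 and Bnip3 at 66.5 ± 3.31 TPM, with no overlap between neighbours. Egln2 at 46.8 ± 1.02 and Hif1a at 44.2 ± 3.88 TPM overlapped in sham, and Arnt at 29.3 ± 4.32, Vhl at 15.3 ± 2.65 and Egln3 at 5.49 ± 1.13 TPM followed without overlap. Hif3a was the lowest of the 10 in both groups.

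**Figure D1:**
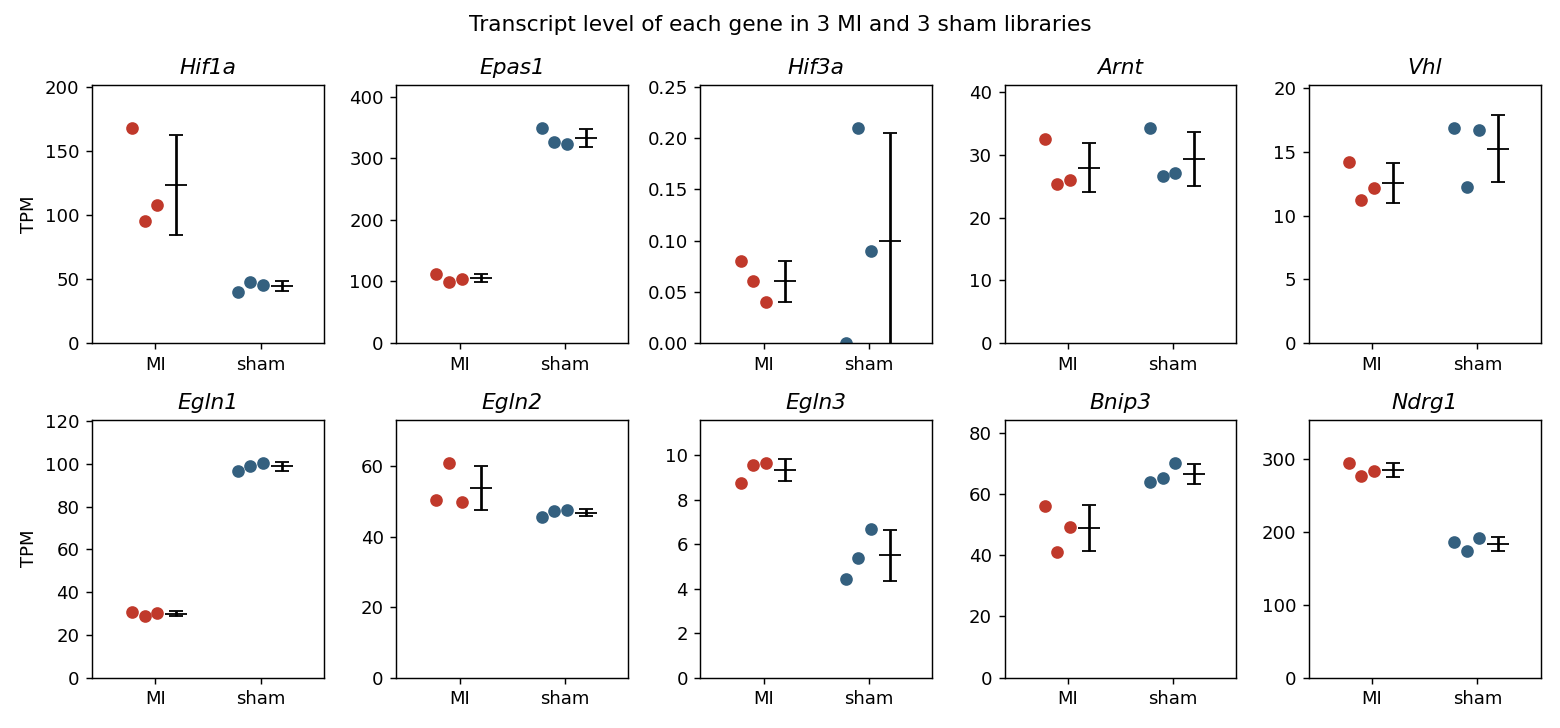
Transcript level in TPM (vertical axis, from 0) of each of the 10 genes in the 3 MI and 3 sham libraries; dots are libraries, and the black dash with whiskers is the group mean with its SD. The MI dots lie above all sham dots for Hif1a, Egln2, Egln3 and Ndrg1, below them for Epas1, Egln1 and Bnip3, and among them for Arnt, Vhl and Hif3a.

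Transcripts of the alpha subunits moved in opposite directions. Hif1a (Entrez 15251, a protein-coding gene on chromosome 12 from 73901324 to 73947554 of GRCm38.p6), which encodes the broadly expressed HIF-1 alpha, had 168, 94.8 and 108 TPM in the MI libraries, against 39.8, 47.2 and 45.6 TPM in the sham libraries. MI 1 was the highest of all, and every MI library lay above every sham library. The deviation of MI 1 was not limited to Hif1a. Across genes, the chi-square per gene, a measure of difference beyond counting error, was 35.4 and 21.4 for MI 1 against MI 2 and MI 3. It was 4.15 for MI 2 against MI 3. The spread between libraries beyond counting error, as a coefficient of variation, was 0.121 within MI and 0.0426 within sham. The test shared each gene's dispersion between the groups, so this unequal spread was not modelled. In counts scaled to library size (CPM), Hif1a averaged 303 ± 75.7 in MI and 99.2 ± 8.58 in sham (SD, n = 3 each), a rise of 3.06-fold, with a log2 fold change of 1.61 ± 0.15 (SE) and an adjusted p of 1.52e-06. Leaving out each library in turn gave log2 fold changes of 1.42 to 1.73, all called. Ptprc was also highest in MI 1, at 302 TPM, against 196 and 225 TPM in MI 2 and MI 3. Cd68 was lowest in MI 1, at 1897 TPM, against 2137 and 2067 TPM, so such markers did not share an order among the MI libraries. Per 100 TPM of Cd68 there were 8.84, 4.44 and 5.22 TPM of Hif1a in MI and 24.5, 31.3 and 28.6 TPM in sham. Per 100 TPM of Ptprc there were 55.6, 48.3 and 47.9 TPM of Hif1a in MI and 93.9, 114 and 113 TPM in sham, so Hif1a was lower in MI when set against this leukocyte gene. Of the 20 macrophage and monocyte markers, 16 had a larger log2 fold change than Hif1a and 4 a smaller one, from -2.90 for Cd163 to 4.76 for Ccr2, so the direction of such a ratio depends on the marker. The part of leukocyte transcripts in the rise of Hif1a was not tested.

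Epas1 (Entrez 13819, chromosome 17 from 86753864 to 86833410, protein coding) encodes HIF-2 alpha, the alpha subunit known for its high level in endothelium. Its level was 112, 99.3 and 104 TPM in the MI libraries, against 349.6, 327 and 324 TPM in the sham libraries. The MI libraries lay close together and all below the sham libraries. Epas1 was 2.84-fold lower in MI, with a log2 fold change of -1.50 ± 0.07 (SE) and an adjusted p of 2.71e-09. Pecam1, a junction protein of endothelial cells, fell further (log2 fold change -2.05 ± 0.07). Per 100 TPM of Pecam1 there were 52.7, 50.6 and 51.2 TPM of Epas1 in MI, against 37.5, 34.5 and 34.3 TPM in sham. Thus Epas1 was lower in MI in TPM and higher per Pecam1 transcript, with no overlap between the groups in either measure. Of the 20 pan-endothelial markers, 19 had a log2 fold change below that of Epas1 and 1 (Fli1, at -1.27) above it. Markers of some other cell types were lower in MI as well. All 10 mural cell markers and all 5 tested red blood cell markers were lower, with median log2 fold changes of -1.59 and -4.49. Of all genes tested, 36.9% were lower. The fibroblast list was mixed, with 4 of its 10 markers higher and 6 lower (median log2 fold change -1.57). How far the lower transcripts of endothelial or other cells account for the fall of Epas1 was not tested.

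Hif3a, whose product includes forms that restrain the other alpha subunits, was close to undetected. Its estimated counts were 6.03, 4.84 and 3.06 in the MI libraries, against 0, 3.00 and 1.16 in the sham libraries. It did not pass the filter on low counts and was not tested. The count of 0 in sham 1 allows up to 0.742 CPM, a limit for counting error only, and no fold was computed.

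Within each library, the share of alpha-subunit transcripts that came from Hif1a was 59.9%, 48.8% and 50.9% in MI, against 10.2%, 12.6% and 12.3% in sham. Epas1 supplied the remainder, 46.8 ± 5.91% in MI and 88.2 ± 1.33% in sham (SD, n = 3 each), apart from the trace of Hif3a. The ratio of Hif1a to Epas1 was 1.50, 0.954 and 1.04 in the MI libraries, against 0.114, 0.144 and 0.141 in the sham libraries. On the log2 scale the ratio was 3.11 units higher in MI (0.19 ± 0.35 in MI, -2.92 ± 0.19 in sham). The two-sided exact permutation p was 0.1, and no smaller p is possible with 3 libraries on each side. The sum of the alpha-subunit transcripts was lower in MI, at 280.1, 194 and 212 TPM, against 389, 374 and 369 TPM in sham. Because both genes are read in the same library, these ratios do not depend on how libraries are scaled.

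**Figure D2:**
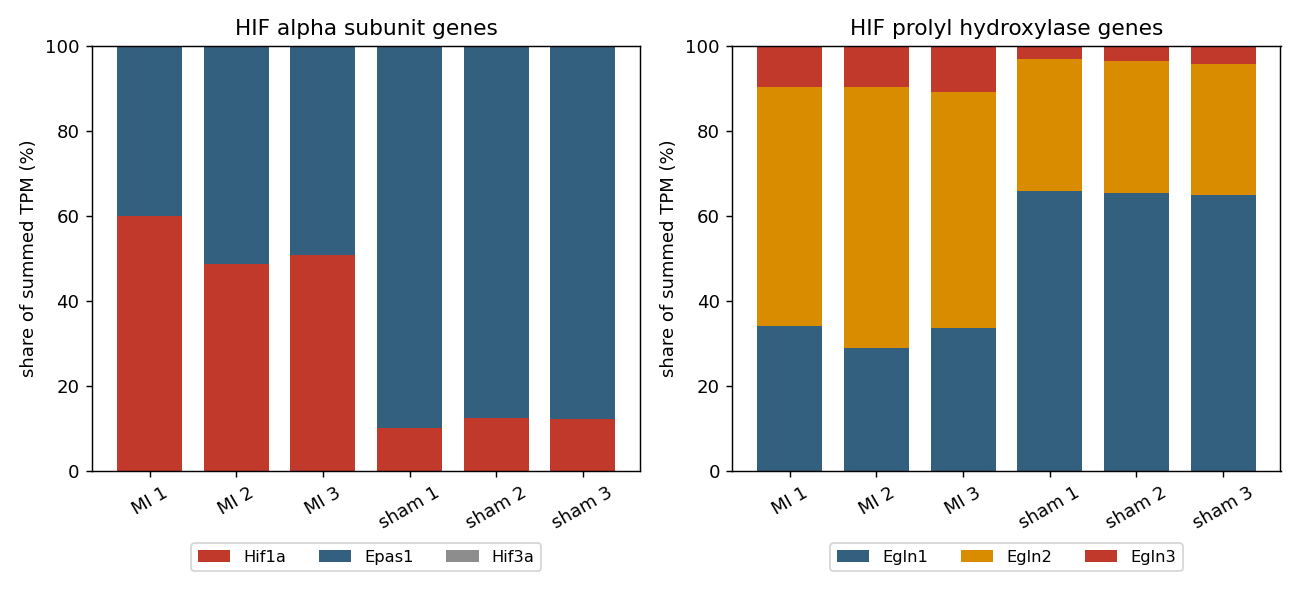
Share of summed TPM in percent (vertical axis) that each gene supplied in each of the 6 libraries, for the alpha-subunit genes (left) and the prolyl hydroxylase genes (right); bars are libraries, MI on the left. Hif1a made up 48.8% to 59.9% of alpha-subunit transcripts in MI and 10.2% to 12.6% in sham, and Egln1 made up 29.0% to 34.2% of hydroxylase transcripts in MI and 65.0% to 65.9% in sham.

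Arnt and Vhl, the shared partner and the recognition subunit of the degrading ligase, were not called. Arnt had 32.5, 25.3 and 26.1 TPM in the MI libraries, against 34.3, 26.6 and 27.0 TPM in the sham libraries, with a log2 fold change of 0.14 ± 0.11 (SE) and an adjusted p of 0.280. Vhl had 14.2, 11.2 and 12.2 TPM in the MI libraries, against 16.9, 12.2 and 16.7 TPM in the sham libraries, with a log2 fold change of -0.13 ± 0.14 and an adjusted p of 0.431. For each gene the groups overlapped. With libraries scaled to total counts, which moves the median of all genes to -0.36, Arnt was at -0.21 and not called, and Vhl was at -0.48 and called lower (adjusted p = 0.00965). Relative to that median, Arnt stood at 0.15 and Vhl at -0.11. For every Arnt transcript there were 8.14 ± 0.470 alpha-subunit transcripts in MI and 13.0 ± 1.46 in sham, both in TPM (SD, n = 3 each).

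The 3 prolyl hydroxylase genes did not move alike. Egln1 (Entrez 112405, chromosome 8 from 124908587 to 124949254, protein coding) encodes PHD2, the main oxygen sensor of most cells. It had 30.7, 28.8 and 30.4 TPM in the MI libraries, against 96.7, 99.0 and 101 TPM in the sham libraries. The libraries of each group lay within a few TPM of each other and the groups were far apart. Egln1 was 2.95-fold lower in MI, with a log2 fold change of -1.56 ± 0.08 (SE) and an adjusted p of 6.56e-09. Set against Pecam1 it was higher in MI, with 14.4, 14.7 and 14.9 TPM per 100 TPM of Pecam1 in MI and 10.4, 10.4 and 10.7 in sham, and 19 of the 20 pan-endothelial markers had a lower log2 fold change. As for Epas1, the part of the lower endothelial, mural or other transcripts in this fall was not tested.

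Egln3 (Entrez 112407, chromosome 12 from 54178981 to 54203874, protein coding) encodes PHD3, the most strongly hypoxia-induced of the hydroxylases. It had 8.75, 9.54 and 9.66 TPM in the MI libraries, against 4.42, 5.38 and 6.67 TPM in the sham libraries. All MI libraries lay above all sham libraries, although the sham values rest on only 25.8 to 33.8 estimated counts each, against 244 to 299 in MI. Egln3 rose 1.90-fold (log2 fold change 0.93 ± 0.18, SE; adjusted p = 5.42e-04), and the call held when each library was left out in turn. Egln2 encodes PHD1, a hydroxylase not known as a hypoxia target. It had 50.3, 61.0 and 49.9 TPM in the MI libraries, against 45.6, 47.2 and 47.5 TPM in the sham libraries, with MI 2 above the other MI libraries. Its rise of 1.26-fold passed narrowly (log2 fold change 0.33 ± 0.13, adjusted p = 0.0318). Without MI 2 it fell short (0.19, adjusted p = 0.154), as it did without each of the sham libraries (adjusted p = 0.0990, 0.0763 and 0.0675 without sham 1, 2 and 3). With libraries scaled to total counts its log2 fold change was -0.017, which is 0.35 relative to the median of all genes.

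Together the hydroxylase transcripts summed to 89.7, 99.3 and 89.95 TPM in the MI libraries, against 147, 152 and 155 TPM in the sham libraries. Egln1 supplied 32.3 ± 2.91% of them in MI and 65.4 ± 0.466% in sham, Egln2 57.7 ± 3.28% in MI and 31.0 ± 0.230% in sham, and Egln3 10.03 ± 0.615% in MI and 3.63 ± 0.653% in sham (SD, n = 3 each). The most abundant hydroxylase transcript was therefore Egln2 in every MI library and Egln1 in every sham library. The ratio of Egln3 to Egln1, which are themselves known HIF targets, was 0.285, 0.332 and 0.318 in MI, against 0.0457, 0.0543 and 0.0664 in sham. On the log2 scale this was 2.50 units higher in MI (-1.68 ± 0.11 in MI, -4.19 ± 0.27 in sham), with p = 0.1 in the two-sided exact permutation test, the smallest possible here.

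The target genes Bnip3 and Ndrg1 differed in direction. Bnip3 encodes an outer mitochondrial membrane protein that marks mitochondria for removal and promotes cell death. It had 56.1, 41.1 and 49.1 TPM in the MI libraries, against 64.0, 65.2 and 70.2 TPM in the sham libraries. The groups did not overlap, and Bnip3 was 1.23-fold lower in MI (log2 fold change -0.29 ± 0.11, SE; adjusted p = 0.0246). This call was lost in 5 of the 6 fits that left out a library, with adjusted p up to 0.107 and every log2 fold change between -0.33 and -0.22, and held without MI 1. The adjusted p in the fits that lost it was 0.0914 without MI 2, 0.0564 without MI 3, and 0.0504, 0.0589 and 0.107 without sham 1, 2 and 3. With libraries scaled to total counts the log2 fold change was -0.64, which is -0.28 relative to the median of all genes. Ndrg1 encodes a cytoplasmic stress-response protein. It had 295, 277 and 284 TPM in the MI libraries, against 186, 173 and 192 TPM in the sham libraries. The lowest MI library was well above the highest sham library. Ndrg1 rose 1.74-fold (log2 fold change 0.80 ± 0.08, adjusted p = 1.57e-06), and fits without each library gave 0.76 to 0.84. Of the 20 macrophage and monocyte markers, 19 had a larger log2 fold change than Ndrg1.

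**Figure D3:**
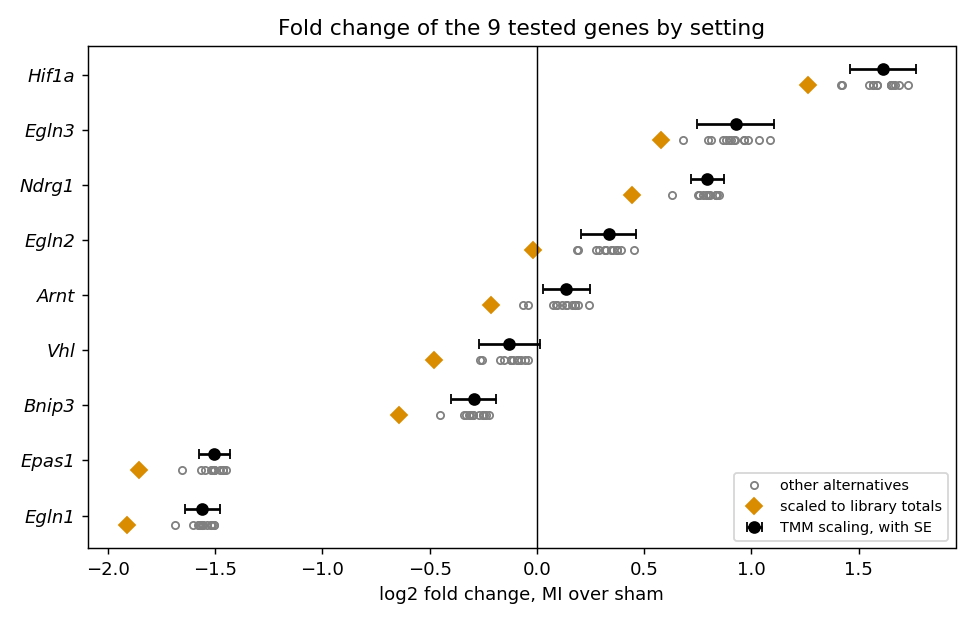
Log2 fold change of MI over sham (horizontal axis) for the 9 tested genes; black points with SE whiskers are the TMM-scaled edgeR estimates, orange diamonds the estimates with libraries scaled to total counts, and open circles the other alternatives. Hif1a, Egln3 and Ndrg1 stay to the right of 0 and Bnip3, Epas1 and Egln1 to the left in every setting drawn, whereas the diamond of Egln2 lies at -0.017 and Arnt has values on both sides.

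The stretches upstream of the annotated transcription starts were read for the HIF-binding core, because several of these genes are known HIF targets. The core was searched as ACGTG and GCGTG on both strands (written CACGT and CACGC on the reverse strand) in the 250 bases before each start, from the RefSeq promoter table of GRCm38.p6, which matched 8 of the 10 genes with 9 windows. Epas1 and Ndrg1 were not matched. The Hif1a window precedes a start that lies inside the span given above for the gene, not at its first base. The starts behind the Arnt window and the Egln2 window from 27165729 to 27165978 also lie inside the spans of those genes. A match was found in 8 of the 9 windows, against 38.6% of all 32851 windows of the same length. Both cores hold the bases CG and the windows were not matched for base composition, so no enrichment is read from this. Vhl had no match. The palindrome CACGTG holds ACGTG on both strands and was counted as 2 overlapping matches. The 4 windows below belong to genes called higher (Hif1a and Egln3) or lower (Egln1 and Bnip3) in MI, and are printed 5′ to 3′ with matches in capitals.
Hif1a (chr12:73907617-73907866, plus strand): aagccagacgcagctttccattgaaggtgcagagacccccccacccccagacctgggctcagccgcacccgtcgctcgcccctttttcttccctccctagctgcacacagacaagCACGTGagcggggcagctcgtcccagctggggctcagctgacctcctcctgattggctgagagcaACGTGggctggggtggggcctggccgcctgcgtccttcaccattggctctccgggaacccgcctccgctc
Egln1 (chr8:124949255-124949504, minus strand): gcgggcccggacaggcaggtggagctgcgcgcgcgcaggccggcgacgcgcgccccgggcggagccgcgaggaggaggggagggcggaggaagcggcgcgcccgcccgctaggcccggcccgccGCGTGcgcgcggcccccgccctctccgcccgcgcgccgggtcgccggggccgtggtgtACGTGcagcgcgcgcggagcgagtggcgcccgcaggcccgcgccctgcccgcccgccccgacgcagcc
Egln3 (chr12:54203875-54204124, minus strand): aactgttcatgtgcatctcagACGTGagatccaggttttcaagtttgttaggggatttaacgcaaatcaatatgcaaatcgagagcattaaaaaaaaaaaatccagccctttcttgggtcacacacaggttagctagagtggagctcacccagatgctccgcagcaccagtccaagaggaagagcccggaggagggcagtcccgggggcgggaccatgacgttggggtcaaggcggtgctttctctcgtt
Bnip3 (chr7:138909507-138909756, minus strand): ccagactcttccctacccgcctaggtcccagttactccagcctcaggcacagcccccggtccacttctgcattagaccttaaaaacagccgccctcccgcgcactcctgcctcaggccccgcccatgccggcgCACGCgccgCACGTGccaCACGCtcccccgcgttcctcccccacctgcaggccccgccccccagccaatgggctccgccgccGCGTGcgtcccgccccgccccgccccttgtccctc
Hif1a held 3 matches, of which 2 overlap in a CACGTG. Egln1 held 2, with the ACGTG starting 68 bases before the transcription start. Egln3 held 1, starting 229 bases before the start. Bnip3 held 5, of which 2 overlap in a CACGTG that begins 108 bases before the start. Matches were thus present in the windows of genes that rose and of genes that fell, and a match describes the letters only.

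The proteins that control HIF abundance and activity were read from a list of 22 further genes, of which 20 were tested. Of these, 7 were higher and 7 lower in MI and 6 did not pass (median log2 fold change 0.07, against -0.01 for all genes). Of all genes tested, 36.4% were higher and 36.9% lower, and the counts of this and the following lists are to be read against these shares. Most partners of VHL in the degradation complex did not pass. Elob, Eloc and Rbx1, which join VHL in the ubiquitin ligase, had log2 fold changes of 0.03 ± 0.12, 0.11 ± 0.09 and -0.18 ± 0.11 (SE), while the scaffold gene Cul2 fell (-0.53 ± 0.12, adjusted p = 0.00237). Hif1an, which encodes the asparaginyl hydroxylase that blocks coactivator binding, was at 6.71 ± 0.679 TPM in MI and 6.80 ± 0.729 TPM in sham and did not pass (0.14 ± 0.12).

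Among the members that rose, Mdm2, a ubiquitin ligase best known for p53, was at 343 ± 55.8 TPM in MI and 71.1 ± 3.04 TPM in sham (5.44-fold). Cited2, a HIF target that competes with HIF-1 alpha for the coactivators p300 and CBP, was at 145 ± 4.87 TPM in MI and 57.5 ± 4.18 TPM in sham (2.78-fold, adjusted p = 2.76e-08). Os9 rose 2.24-fold and Crebbp, the gene of the coactivator CBP, 2.52-fold, whereas Ep300, its close relative, was at 12.3 ± 3.98 TPM in MI and 11.9 ± 0.981 TPM in sham and did not pass. The ubiquitin ligase genes Siah1a and Siah2, whose products are known to act on prolyl hydroxylases, went opposite ways. Siah2 rose 1.79-fold (adjusted p = 1.03e-04) and Siah1a was 1.79-fold lower in MI (adjusted p = 1.73e-04). Cited4 fell (log2 fold change -1.86 ± 0.43) and so did the chaperone gene Hsp90ab1 (-0.32 ± 0.07). With libraries scaled to total counts, 5 were higher and 11 lower.

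Other enzymes that use oxygen and 2-oxoglutarate, together with the thiol oxidase gene Ado, made a list of 18 tested genes. Of these, 4 were higher, 9 lower and 5 not called (median -0.08), where 73.3% of all genes tested were called. The histone demethylase gene Kdm6b rose most clearly, at 113 ± 9.51 TPM in MI and 39.2 ± 3.78 TPM in sham (3.26-fold, adjusted p = 3.81e-09). Kdm5c, Tet2 and Tet3, for a histone demethylase and a pair of DNA dioxygenases, rose 1.74-fold, 2.48-fold and 1.64-fold. P4ha2 and Plod2, for enzymes that hydroxylate collagen, were 2.36-fold and 2.11-fold lower in MI, Kdm4c was 1.77-fold lower, and Tet1, at 0.177 ± 0.117 TPM in MI and 0.937 ± 0.0153 TPM in sham, was 5.09-fold lower.

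Known HIF target genes went mostly up, with a sizeable group going down. Of 40 listed genes, 39 were tested, and 22 were higher, 11 lower and 6 not called, with a median log2 fold change of 0.64 against -0.01 for all genes tested. Of all genes tested, 36.4% were higher and 36.9% lower. With libraries scaled to total counts 20 were higher and 12 lower, and the median was 0.28 against -0.36. The lipid droplet genes Plin2 and Hilpda rose 13.6-fold and 14.0-fold. Plin2 was at 1545 ± 58.2 TPM in MI and 128 ± 7.63 TPM in sham, and Hilpda at 446 ± 21.5 TPM in MI and 35.7 ± 1.69 TPM in sham. Hmox1, which encodes the heme-degrading enzyme and also answers to oxidative stress, rose 7.62-fold, and Hk2, for the enzyme of the initial step of glycolysis, 7.69-fold.

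The target genes that fell included Adm, for the vasodilator peptide adrenomedullin, at 13.1 ± 0.637 TPM in MI and 71.9 ± 5.37 TPM in sham (4.90-fold lower, adjusted p = 6.97e-09). Ankrd37, for an ankyrin repeat protein, was at 12.4 ± 1.43 TPM in MI and 60.5 ± 4.07 TPM in sham (4.43-fold lower). P4ha2 and Plod2, counted among the dioxygenases above, belong to this group as well. Car12 had no counts in sham, was at 0.203 ± 0.104 TPM in MI and was not tested. In the same libraries the macrophage and monocyte list had a median log2 fold change of 2.62 and that of the pan-endothelial list was -2.08, and their part in the directions of the target genes was not tested.

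**Figure D4:**
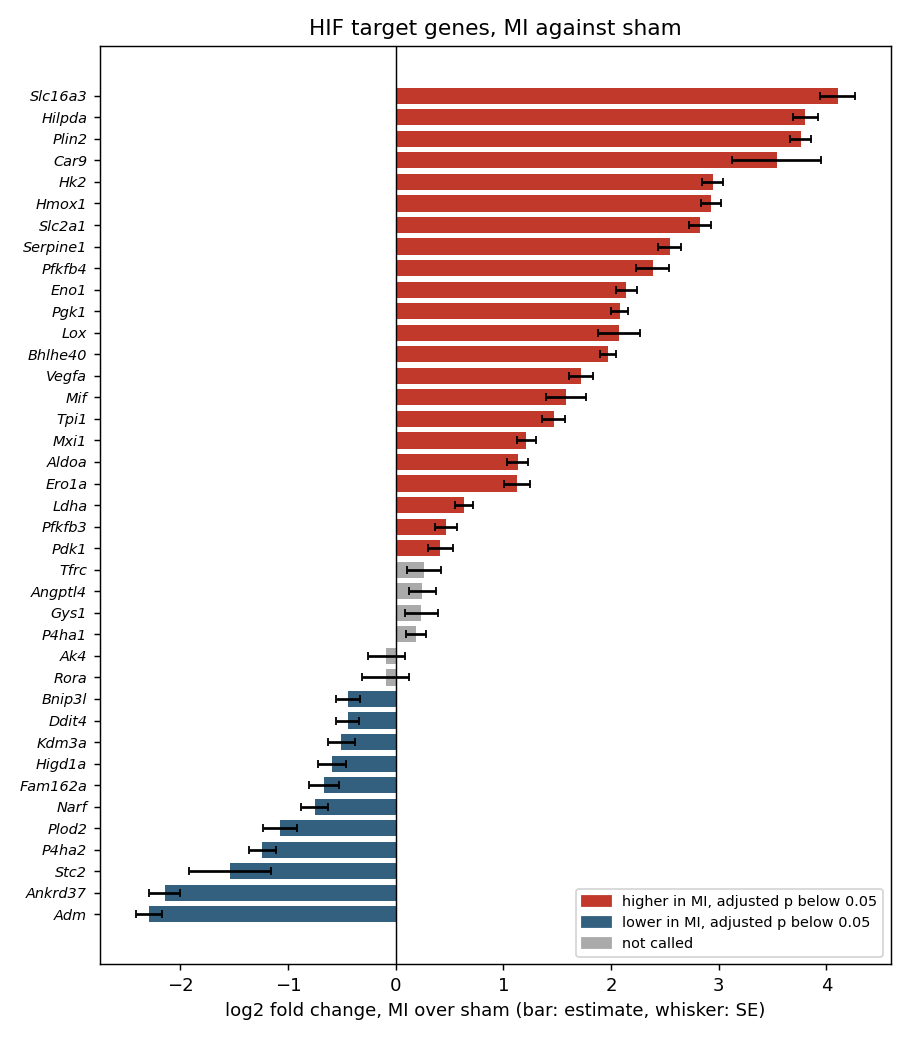
Log2 fold change of MI over sham (horizontal axis) with SE whiskers for the 39 tested HIF target genes; red bars were called higher in MI, blue bars lower, and grey bars were not called. The bars run from -2.29 for Adm to 4.10 for Slc16a3, with 22 red and 11 blue.

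Relatives of the target genes gave a further comparison. All 3 relatives of Ndrg1 fell while Ndrg1 itself rose. Ndrg2 was at 11.0 ± 0.542 TPM in MI and 89.7 ± 1.66 TPM in sham (7.28-fold lower), Ndrg4 at 2.58 ± 0.171 TPM in MI and 17.9 ± 0.848 TPM in sham (6.30-fold lower), and Ndrg3 was 1.42-fold lower. Ndrg2 is known for its high level in heart muscle, and the cardiomyocyte list, with a median log2 fold change of -4.27, was lower in the same libraries; its part was not tested. Ndrg1 made the largest contribution to the family in both groups.

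Of 18 tested genes for mitophagy receptors, Bnip3 relatives and their partners, 8 were higher and 7 lower in MI and 3 did not pass (median 0.19). With libraries scaled to total counts, 6 were higher and 8 lower. Of all genes tested, 73.3% were called in the main fit. Bnip3l, the close relative of Bnip3 with the same mitochondrial role, was also lower, at 71.9 ± 16.0 TPM in MI and 109 ± 4.89 TPM in sham (1.36-fold lower, adjusted p = 0.00337; named after its value was seen). The ratio of Bnip3l to Bnip3 was 1.61, 1.48 and 1.32 in the MI libraries, against 1.63, 1.65 and 1.62 in the sham libraries. Sqstm1, the autophagy cargo receptor gene, rose 6.08-fold, at 2506 ± 80.4 TPM in MI and 462 ± 3.93 TPM in sham, and Ulk1, Gabarap and Gabarapl1, which act in forming the autophagosome, rose 1.89-fold, 1.82-fold and 1.54-fold. Pink1, the kinase gene that flags damaged mitochondria, was 2.55-fold lower in MI, Map1lc3a 2.77-fold lower, Gabarapl2 1.66-fold lower and Bnip2 1.34-fold lower.

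**Figure D5:**
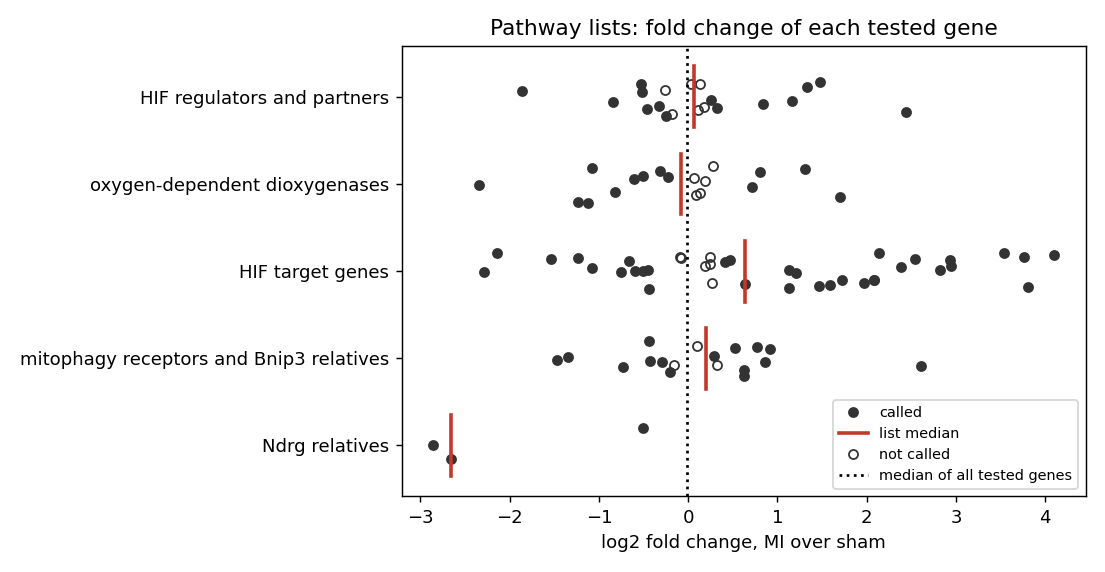
Log2 fold change of MI over sham (horizontal axis) for each tested gene of the 5 pathway lists; filled dots were called, open dots were not, red bars are list medians and the dotted line is the median of all genes tested (-0.01). The list medians lie at 0.07, -0.08, 0.64, 0.19 and, for the 3 Ndrg relatives, -2.65.

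Among 8044 genes with a mean of at least 10 TPM, those whose profile over the 6 libraries was most like that of Hif1a were Naa50, Zfp991, Fndc3b, Gda and Hivep2, with root mean square differences of 0.05 to 0.08 log2 units after each gene was centred on its own mean. Naa50, for a protein acetyltransferase, was the closest, at 116 TPM in MI and 41.4 TPM in sham (means of 3). The genes most like Epas1 were Pxdn, Nes, Dab2ip, Myo10 and Aktip, with differences of 0.04 to 0.05. Pxdn, for a matrix peroxidase, was at 28.6 TPM in MI and 88.9 TPM in sham, and Nes, for the intermediate filament nestin, at 24.5 TPM in MI and 77.96 TPM in sham. With 3 libraries in each of 2 groups, this likeness reflects mainly a similar difference between MI and sham.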

How the data were processed

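RNA from 3 MI and 3 sham libraries was sequenced on the BGISEQ-500 and mapped to the mouse genome GRCm38, per the labels and the series text. Per the submitters' processing notes the build was GRCm38.p6, and Agilent Feature Extraction 9.1 is named with no role. No aligner, counting program or annotation is given in the sources used here. The deposited values were estimated counts, not scaled, and TPM and FPKM computed by the authors. The authors' scaled read counts (a signal value) and group averages were not used. Strand was not stated, which leaves overlapping genes uncertain.

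The estimated counts, after rounding, were analysed with edgeR 4.0.16 in R 4.3.3, using filterByExpr (13370 genes kept), TMM scaling and the quasi-likelihood test with the group as the only term, with calls at 0.05 after Benjamini-Hochberg adjustment over every gene kept. Log2 fold changes are MI over sham, with an SE derived from the F statistic. Levels are TPM. In sham 8.72% to 10.1% of TPM belonged to LOC118568718, against 0.0800% to 0.107% in MI, which lowers every other sham TPM. The TMM factors were 0.877 to 0.892 in MI and 1.13 in sham, and TPM placed MI lower relative to sham than the TMM fold changes did. Arnt, for example, was at 28.0 TPM in MI and 29.3 TPM in sham, with a log2 fold change of 0.14. The procedure was run on simulated data in which few genes changed, in both directions, with the same dispersion in both groups. Such data do not test the scaling or the error rate where most genes differ, as here. Groups and replicate numbers came from sample titles. Positions came from RefSeq (GRCm38.p6, all 10 genes matched). The members and lists were chosen with earlier results of these data known. Of each list, up to 4 rises and 4 falls with the smallest p were named; Elob, Eloc, Rbx1, Hif1an, Ep300, Siah2, Bnip3l, Car12 and Slc16a3 were also named for their role or place where the rule did not take them. Alternatives were DESeq2 1.42.0, limma 3.58.1 (voom, and log2(TPM + 1)), RLE or total-count scaling, other filters, thinning, a 2-fold test, a replicate block and leaving out each library.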

Additional observations from a re-analysis of the deposited data

How the results depend on the processing

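Hif1a, Epas1 and Egln1 kept their direction and their call in all 16 alternatives, with log2 fold changes of 1.27 to 1.73, -1.85 to -1.45 and -1.91 to -1.50. Egln3 (0.58 to 1.09) and Ndrg1 (0.45 to 0.85) kept theirs in 15 of 16, the exception being the test of a fold change above 2. The calls of Egln2 and Bnip3 were lost in 10 and 9 alternatives. For Egln2 these include scaling to total counts, which moved all genes down by about 0.35 and gave -0.017 (adjusted p = 0.905), or 0.35 relative to the median of all genes. Vhl, not called otherwise, was called lower with that scaling. Of the listed genes the number called higher or lower was within 1.5 times the reported count except as follows. With total-count scaling 11 HIF regulators were lower. When a fold change above 2 was tested, which counts only larger changes, 1 of the 10 genes was higher (Hif1a), 4160 of all genes were called, 4 HIF regulators were higher and 1 lower, 1 dioxygenase was higher and 2 lower, 3 HIF targets were lower, and 1 mitophagy gene was higher and 2 lower.

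The log2 ratio of Hif1a to Epas1 stayed between 2.91 and 3.23 without each library, and that of Egln3 to Egln1 between 2.37 and 2.64. Without each library, 3 to 4 of the 10 genes were higher and 2 to 3 lower. No pairing by replicate number was seen, as deviations of same-numbered libraries correlated at -0.05, -0.02 and 0.02 across genes. The labels state no pairing, and with 3 libraries per group these values cannot exclude shared handling. With the replicate number as a block, 4 of the genes were higher and 3 lower and 9635 of all genes were called. The ratios were then 3.11 and 2.50 with an exact sign-flip p of 0.25, the smallest that 3 pairs allow. Sham depth limits Egln3. Hif3a was close to undetected in the deeper MI libraries as well, at 6.03, 4.84 and 3.06 estimated counts.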
